A study of Mus musculus with 24 samples.

Results

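The 10 genes described here encode the machinery that presents peptides on MHC class II molecules: H2-Aa, H2-Ab1, H2-Eb1, H2-DMa, H2-DMb1, H2-DMb2, H2-Oa, H2-Ob, Cd74 and Ciita. They were chosen by name and matched by symbol to the 41388 mouse genes of the count tables, and all 10 were found. The study followed the heart transcriptome during experimental autoimmune myocarditis (EAM), in which mice are immunized against a cardiac antigen. RNA from a portion of the heart was sequenced in 24 wild type male BALB/c mice (BALB/cAnNCrl in the methods), 4 EAM and 4 control hearts at each of day 10, day 15 and day 21 (D10, D15 and D21). EAM mice were immunized at 8 to 10 weeks of age with 100 μg of a myosin heavy chain peptide in 200 μl of an emulsion with supplemented complete Freund's adjuvant (SCFA). They received it on day 0 and again on day 7, with pertussis toxin on day 0. Control mice received the same volume of SCFA with PBS in place of the peptide, on the same days, and also pertussis toxin, so adjuvant and toxin were shared by all 24 animals. According to the study's methods the tissue sampled was chosen, as far as possible, for the presence of inflammation, since not every mouse of this model may develop myocarditis. The labels do not say whether hearts shared a litter or a cage, so p-values measure the spread between these hearts.

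MHC class II molecules are pairs of an alpha and a beta chain that carry peptides from the endosomes to the cell surface, where CD4 T cells read them. New chains are held by the invariant chain until proteases cut it down, after which the DM molecule swaps the last invariant chain fragment for other peptides and the DO molecule holds DM back. Dendritic cells, macrophages and B cells make class II molecules under the control of the transactivator CIITA. Other cells, endothelium among them, can make these molecules under interferon-gamma.

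Total counts lay between 15814863 and 24980864 per heart, with a median of 19469782. Levels are CPM, counts scaled to a library of fixed size after TMM normalization. On that scale 3 reads, the limit that a count of 0 allows, were 0.105 to 0.201 CPM. All 8 cardiomyocyte markers examined were detected in every group, with a summed level of 8152 CPM or more in each heart. The library codes in the labels were of the same kind for 20 hearts and of another for the 4 D21 EAM hearts. What the code marks is not stated, and at D21 it cannot be told apart from EAM.

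All 10 genes were induced in EAM hearts at D15 and at D21, and none passed the test at D10. A gene is called induced at an FDR under 0.01 with at least a 2-fold change, by the quasi-likelihood test of edgeR, with p-values adjusted after Benjamini-Hochberg across the genes tested that day. At D15 the median log2 fold change of the 10 genes was 3.78, against 0.016 over the 15693 genes tested, of which 18.1% were induced and 12.9% repressed. At D21 it was 3.08, against -0.0064 over 15266 genes, with 4.13% induced and 1.16% repressed. At both days the 4 EAM hearts lay above the 4 control hearts of the day for 10 of 10 genes, which was so for 34.6% of all genes at D15 and 17.8% at D21. At D10 it was so for 0 of 10, and for 4.41% of all genes. The D10 median was 1.07 over the 9 genes tested, and 0 of 9 were induced, as were 0% of all 15029 genes. An unadjusted p under 0.05 was reached by 5 of the 9 at D10, against 9.71% of all genes. That count depended on the tool, with 8 of 9 by the likelihood ratio test (9.71% of all genes), 5 by DESeq2 (11.3%) and 0 by limma-voom (5.78%). The edgeR likelihood ratio test, DESeq2 and limma-voom also called 0 of the 9 at D10, against 0.299%, 0.319% and 0% of all genes. At D15 these 3 tools called 10 of 10, against 18.5%, 18.1% and 17.7%. At D21 the first 2 called 10 of 10, against 8.88% and 8.93%, and limma-voom called 4 (H2-Aa, H2-Ab1, H2-Eb1 and Cd74), against 0.524%. Against all 12 control hearts H2-DMa, H2-DMb1 and H2-DMb2 were called at D10, with adjusted p between 0.00315 and 0.00998 by edgeR's quasi-likelihood test, in a fit where 4.07% of all 15545 genes were induced.

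The D21 calls changed with the hearts included, and those of all genes did too. With any D21 control heart left out, 0 of 10 genes were called, and without EAM replicate 1 or 2, where H2-Oa was no longer tested, 0 of 9, with adjusted p between 0.0119 and 0.0330 by edgeR's quasi-likelihood test. Of all genes 0% were induced in each of the 4 fits without a control, and 0.0265% and 0.053% without EAM replicate 1 and 2. Without EAM replicate 3, 9 of 9 were called, against 9.78% of all genes, and without EAM replicate 4, 7 of 9, against 1.98%. At D15 every gene that was still tested stayed induced when any single heart was left out. In all of these fits the fold changes remained above 0. Of the 10 genes, 8 had at least 25 reads in every heart, and all 8 were among those induced at both days. H2-Oa and H2-Ob did not: H2-Oa passed the filter of 10 reads in 4 hearts only through EAM hearts, and H2-Ob, with 10 reads in 1 control heart at D10 and 2 at D15, needed EAM hearts to pass on those days.

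**Figure D1:**
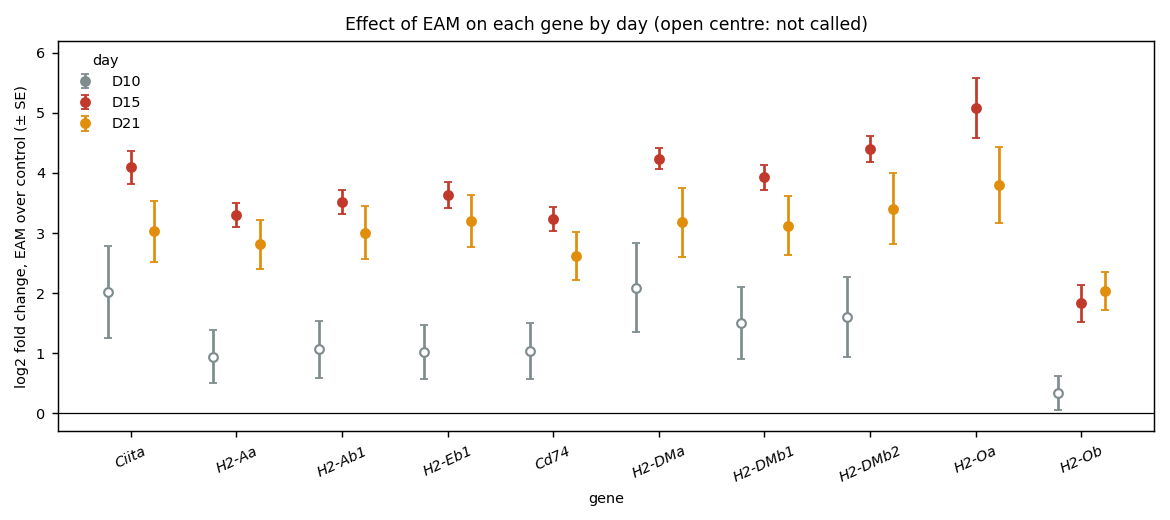
Log2 fold change of EAM over control hearts for each of the 10 genes at D10, D15 and D21, with bars of 1 SE, from 4 against 4 hearts; an open centre marks a gene that was not called. At D15 the values run from 1.83 (H2-Ob) to 5.09 (H2-Oa) and at D21 from 2.04 to 3.80. At D10, where H2-Oa was not tested, they run from 0.34 to 2.09. H2-Oa at D15 and D21, and H2-Ob at D10 and D15, met the read filter only with EAM hearts.

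Of the 10 genes, 8 lie within the MHC region of chromosome 17. Promoters of class II genes are known for shared elements, among them an X box, bound by the RFX complex, and a Y box, bound by NF-Y, on which CIITA assembles. RefSeq promoters of GRCm38.p6, from 250 bases before to 50 after the start site, were at hand for 7 members. The core TGATTGG of the Y box was found on the coding strand in 6 of the 7 (H2-Aa, H2-Eb1, H2-DMb1, H2-DMb2, H2-Oa and H2-Ob), while 7.82% of 32851 promoters hold it on either strand. The X box core, read as AG, any 2 bases, AC, any base, G, any base and TG, was found in 3 of the 7 (H2-Eb1, H2-DMb1 and H2-Oa), against 4.61% of all promoters. Counted by gene, 9% of 27025 genes hold the Y core and 5.36% the X core. Both cores, with the Y core starting 25 to 39 bases after the X core, occurred in 6 promoters of the table (0.0183%). Those of H2-Eb1 and H2-DMb1 were among them. In H2-Oa the Y core started 96 bases after the X core, outside that gap. Only exact matches to the pattern were counted, so a promoter without a match may hold a variant of the X box. The letters matching the X core were AGCAACTGATG in H2-Eb1 and AGTAACTGATG in H2-DMb1, and their Y cores started 31 and 32 bases further on. To show the Y core and the bases before it in genes of different roles, stretches of 55 bases are given for a classical alpha chain, a classical beta chain and H2-Ob, 5′ to 3′ on the coding strand, with the Y core in capitals and, in H2-Eb1, which alone of these 3 holds it, the X core too. They lie at chr17:34287861-34287915 (minus strand, H2-Aa), chr17:34305764-34305818 (plus strand, H2-Eb1) and chr17:34238804-34238858 (plus strand, H2-Ob), each upstream of its gene.
H2-Aa: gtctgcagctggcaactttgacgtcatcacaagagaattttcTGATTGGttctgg
H2-Eb1: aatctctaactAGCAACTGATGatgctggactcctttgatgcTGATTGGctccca
H2-Ob: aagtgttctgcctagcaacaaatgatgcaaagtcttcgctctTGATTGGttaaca
In these the Y core began 50, 61 and 59 bases before the RefSeq start site. A match is a description of letters and not of binding.

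Ciita (ENSMUSG00000022504, chromosome 16, 10480059 to 10528418, plus strand) encodes the transactivator that switches class II genes on. At D10 it stood at 6.396, 4.25, 2.70 and 3.97 CPM in control replicates 1 to 4, and at 47.9, 3.06, 13.5 and 6.34 CPM in the EAM hearts. At D15 the control hearts held 5.05, 3.898, 4.46 and 6.95 CPM and the EAM hearts 106, 51.1, 81.2 and 98.9 CPM. At D21 the values were 8.75, 5.33, 4.20 and 9.78 CPM in control and 64.8, 43.4, 19.2 and 96.3 CPM in EAM hearts. Thus only replicates 1 and 3 of the D10 EAM hearts exceeded the controls of their day, while every EAM heart did at D15 and D21. The log2 fold change was 2.03 ± 0.77 (SE) at D10 (adjusted p = 0.328), 4.09 ± 0.27 at D15 (adjusted p = 1.4e-06) and 3.03 ± 0.51 at D21 (adjusted p = 0.00670) by edgeR's quasi-likelihood test. At D15 this is a 17.0-fold higher level. Ciita overlaps Dexi on the opposite strand. The library kit keeps the strand, but whether counting used it is not stated in the methods or labels.

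H2-Aa and H2-Ab1 encode the alpha and beta chains of the I-A molecule, and H2-Eb1 the beta chain of I-E. H2-Ab1 (ENSMUSG00000073421, chromosome 17, 34257689 to 34269419, plus strand) held 45.4, 30.8, 24.9 and 29.2 CPM in the D10 control hearts and 140, 29.9, 72.4 and 32.3 CPM in the D10 EAM hearts. At D15 it held 37.3, 34.2, 29.8 and 41.9 CPM in control and 482, 337, 293 and 477 CPM in EAM hearts. At D21 these were 43.5, 41.0, 29.5 and 56.7 CPM against 435, 262, 128 and 516 CPM. Replicates 2 and 4 of the D10 EAM hearts lay inside the range of the controls, whereas the lowest EAM heart of D21, replicate 3, still lay above the highest control. H2-Ab1 was 11.4-fold higher at D15 (log2 fold change 3.51 ± 0.20 SE, adjusted p = 5.0e-07) and 8.03-fold higher at D21 (3.01 ± 0.44, adjusted p = 0.00535) by edgeR's quasi-likelihood test. At D10 the log2 fold change was 1.07 ± 0.48 (edgeR adjusted p = 0.330).

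H2-Aa (ENSMUSG00000036594, chromosome 17, 34282744 to 34287823, minus strand) ranged from 28.9 to 73.1 CPM over the 12 control hearts, from 311 to 543 CPM in the D15 EAM hearts and from 158 to 554 CPM in the D21 EAM hearts. H2-Eb1 (ENSMUSG00000060586, chromosome 17, 34305867 to 34316674, plus strand) ranged from 34.6 to 89.5 CPM in control hearts, from 445 to 779 CPM in D15 EAM and from 231 to 857 CPM in D21 EAM hearts. Their rises were 9.86-fold and 12.4-fold at D15 (log2 fold change 3.30 ± 0.20 and 3.63 ± 0.22 SE) and 7.03-fold and 9.18-fold at D21 (2.81 ± 0.41 and 3.20 ± 0.43). All 4 of these passed, with edgeR adjusted p of 8.0e-07, 7.9e-07, 0.00526 and 0.00473. For each H2-Aa read there were 0.743 to 0.948 H2-Ab1 reads over the 24 hearts. At D15 there were 0.769 to 0.826 in control and 0.887 to 0.948 in EAM hearts, without overlap. At D10 and D21 the ranges of the 2 groups overlapped. BALB/c mice carry the d haplotype of this locus and the reference genome the b haplotype of C57BL/6. How many reads of these polymorphic chains failed to align was not tested.

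The alpha chain of I-E is annotated in the reference as a pseudogene, H2-Ea-ps, since the b haplotype carries a promoter deletion that silences it, whereas the d haplotype makes I-E. In these hearts H2-Ea-ps had 587 to 19461 reads, and 0.927 to 1.23 reads for each read of H2-Eb1. At D15 it had 1.107 to 1.187 of these in control and 0.966 to 1.081 in EAM hearts. At D21 it had 1.118 to 1.23 in control and 0.927 to 1.018 in EAM hearts. H2-Ea-ps was thus lower relative to H2-Eb1 in EAM hearts without overlap at D15 and D21, while at D10 it overlapped between groups. It stood at 59.4 ± 9.45 CPM (SD, n = 4) in D15 control and 642 ± 159 CPM in D15 EAM hearts, without overlap, and at 74.9 ± 26.0 and 554 ± 282 CPM at D21. It was induced at both days by edgeR's quasi-likelihood test, with log2 fold changes of 3.48 ± 0.21 (SE, adjusted p = 7.0e-07) and 2.92 ± 0.45 (adjusted p = 0.00584). At D10 the value was 1.08 ± 0.50 (edgeR adjusted p = 0.336). The neighbouring gene H2-Eb2 had 0 to 7 reads per heart and was not tested.

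Cd74 (ENSMUSG00000024610, chromosome 18, 60803848 to 60812652, plus strand) encodes the invariant chain, the chaperone of new class II molecules. In D10 hearts it stood at 276, 203, 145 and 156 CPM in control and 793, 177, 444 and 201 CPM in EAM replicates 1 to 4. At D15 control hearts held 236, 204, 180 and 253 CPM and EAM hearts 2388, 1814, 1486 and 2330 CPM. At D21 the values were 281, 256, 187 and 391.7 CPM against 2186, 1349, 775 and 2400 CPM. The groups overlapped at D10 and were apart at D15 and D21, with D21 EAM replicate 3 the closest to the controls. The log2 fold change was 1.04 ± 0.47 (SE) at D10 (adjusted p = 0.330), 3.24 ± 0.20 at D15 (adjusted p = 7.9e-07) and 2.62 ± 0.39 at D21 (adjusted p = 0.00565) by edgeR's quasi-likelihood test, a 9.43-fold and a 6.14-fold rise at the later days. A microRNA gene, Mir5107, lies inside Cd74 on the same strand. Duplicate reads had been removed before counting, and what this took from a gene with up to 60369 reads was not tested.

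H2-DMa encodes the alpha chain of the peptide editor DM, and H2-DMb1 and H2-DMb2 its beta chains. H2-DMa (ENSMUSG00000037649, chromosome 17, 34119541 to 34139101, plus strand) held 12.6, 7.84, 6.12 and 7.74 CPM in the D10 control hearts and 100.1, 8.28, 27.6 and 10.98 CPM in D10 EAM hearts. At D15 it held 9.43, 6.91, 6.84 and 9.37 CPM in control and 180, 126, 128 and 165 CPM in EAM hearts. At D21 these were 10.4, 9.89, 7.40 and 15.9 CPM against 125, 64.2, 24.5 and 170.0 CPM. D10 EAM replicate 1 lay above the lowest D21 EAM hearts and below every D15 EAM heart, while replicates 2 and 4 lay below the highest D10 control. H2-DMa was 18.9-fold higher at D15 (log2 fold change 4.24 ± 0.18 SE) and 9.04-fold higher at D21 (3.18 ± 0.57), with edgeR adjusted p of 8.2e-08 and 0.00774. It overlaps Brd2 on the opposite strand.

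H2-DMb1 (ENSMUSG00000079547, chromosome 17, 34153072 to 34160230, plus strand) went from 3.77 ± 0.86 CPM (SD, n = 4) in D15 control hearts to 55.8 ± 12.6 CPM in D15 EAM hearts. H2-DMb2 (ENSMUSG00000037548, chromosome 17, 34143307 to 34151555, plus strand) went from 2.10 ± 0.40 to 43.3 ± 10.1 CPM. Their log2 fold changes were 3.93 ± 0.21 and 4.40 ± 0.21 (SE) at D15, with edgeR adjusted p of 4.2e-07 and 2.1e-07, and 3.12 ± 0.49 and 3.41 ± 0.59 at D21, with adjusted p of 0.00605 and 0.00718. For each H2-DMb1 read there were 0.475 to 0.628 H2-DMb2 reads in D15 control hearts and 0.714 to 0.840 in D15 EAM hearts, 2 ranges that did not overlap, while at D10 and D21 they did. H2-DMb1 and H2-DMb2 share 254 stretches of 75 bases, 15.8% and 14.6% of those in each, so the split of reads between them is uncertain. At D10 the log2 fold changes of H2-DMa, H2-DMb1 and H2-DMb2 were 2.09 ± 0.75, 1.51 ± 0.60 and 1.60 ± 0.67 (SE), each with an edgeR adjusted p of 0.328.

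H2-Oa and H2-Ob encode DO, the inhibitor of DM, whose expression is typical of B cells. H2-Oa (ENSMUSG00000024334, chromosome 17, 34092340 to 34095234, plus strand) had 2, 0, 1 and 2 reads in the D10 control hearts and 20, 1, 8 and 2 in the D10 EAM hearts. At D15 it had 2, 2, 0 and 0 reads in control and 64, 53, 39 and 49 in EAM hearts. At D21 it had 3, 5, 0 and 3 reads in control and 43, 43, 10 and 44 in EAM hearts. All control hearts were thus at or close to the 3 reads that a count of 0 allows. Reads pooled over the 4 hearts of a group and divided by their total counts were 41.4-fold higher in EAM at D15, with a 95% interval of 15.9 to 153, and 15.1-fold higher at D21, with 8.18 to 30.9 (exact binomial, counting error only). H2-Oa passed the test at both days (edgeR adjusted p = 1.7e-05 and 0.00669). It met the filter of 10 reads in 4 hearts only through EAM hearts, so these p-values are no support on their own. The fitted log2 fold change depends on the treatment of these low counts. H2-Oa overlaps BC051537 on the opposite strand.

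H2-Ob (ENSMUSG00000041538, chromosome 17, 34238903 to 34254414, plus strand) had 10, 8, 5 and 6 reads in D10 control and 13, 7, 11 and 10 in D10 EAM hearts. At D15 it had 13, 8, 14 and 8 reads in control and 63, 47, 31 and 69 in EAM hearts. At D21 it had 13, 12, 14 and 18 reads in control and 77, 38, 28 and 62 in EAM hearts. At D10 and D15 H2-Ob met the filter of 10 reads in 4 hearts only with EAM hearts. Its rise was the smallest of the 10 at D15 and at D21, 3.56-fold (log2 fold change 1.83 ± 0.31 SE, adjusted p = 4.6e-04) and 4.10-fold (2.04 ± 0.31, adjusted p = 0.00581) by edgeR's quasi-likelihood test. At D10 the log2 fold change was 0.34 ± 0.28 (edgeR adjusted p = 0.565), and D10 EAM replicate 1, highest of its group for the other 9 genes, stood at 0.575 CPM of H2-Ob beside 0.571 CPM in the highest control.

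**Figure D2:**
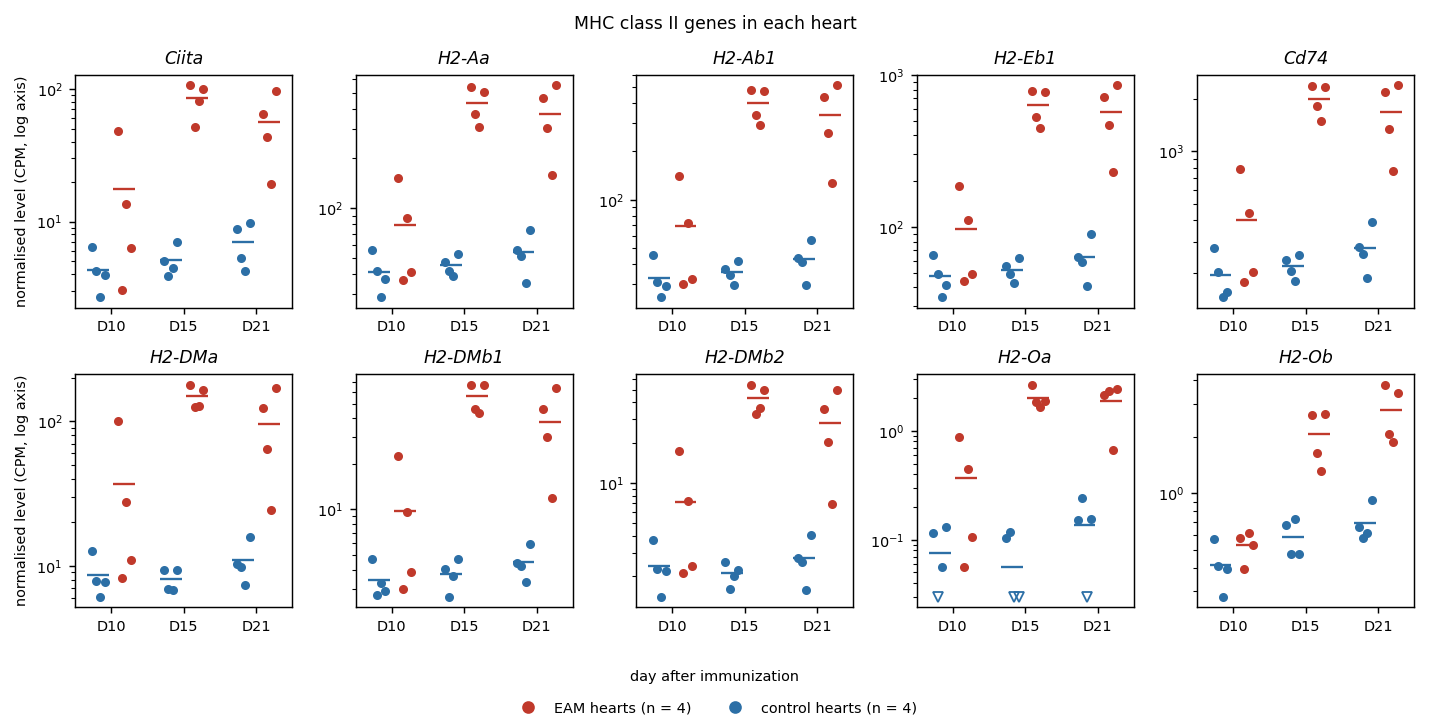
Level of each of the 10 genes in each heart, in CPM on log axes with their own range, for EAM (red) and control hearts (blue) at D10, D15 and D21; horizontal lines are group means of 4, and open triangles at 0.03 CPM stand for hearts with 0 reads of H2-Oa. EAM and control hearts are apart in all 10 panels at D15 and D21 and overlap in all 10 at D10.

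Levels of different genes were compared as CPM per kilobase of annotated exon, which counts the exons of every transcript and so also depends on the annotation. In D15 control hearts Cd74 stood at 130.1 ± 19.4 (SD, n = 4), H2-Eb1 at 26.9 ± 4.23, H2-Ab1 at 13.9 ± 1.99 and H2-Aa at 11.9 ± 1.66. H2-DMa followed at 2.36 ± 0.42, then H2-DMb1 at 2.24 ± 0.51, H2-DMb2 at 1.20 ± 0.23 and Ciita at 0.534 ± 0.139. H2-Ob, at 0.109 ± 0.025, lay above H2-Oa, at 0.0395 ± 0.0458. In these control hearts H2-Oa had 0 to 2 reads, within the 3 reads that a count of 0 allows. The order of this pair is not settled there. The ranges of H2-Ab1 and H2-Aa overlapped, as did those of H2-DMa and H2-DMb1, and the other neighbours did not. In D15 EAM hearts the order was Cd74 at 1194 ± 257, H2-Eb1 at 325 ± 87.0, H2-Ab1 at 155 ± 37.6, H2-Aa at 114 ± 28.7, H2-DMa at 43.4 ± 7.81, H2-DMb1 at 33.2 ± 7.47, H2-DMb2 at 24.8 ± 5.80 and Ciita at 8.85 ± 2.58. There H2-Oa, at 1.43 ± 0.32, lay above H2-Ob, at 0.383 ± 0.128, and the ranges of this last pair did not overlap. H2-Ab1 and H2-Aa overlapped again, and so did H2-DMa with H2-DMb1 and H2-DMb1 with H2-DMb2. The order of the 10 was the same at D10 and D21 within control hearts and within EAM hearts, with more neighbours overlapping in the EAM hearts. At D10 and at D21 the ranges of H2-Oa and H2-Ob overlapped in control and in EAM hearts.

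The EAM hearts of D10 and D21 differed widely among themselves. Against the mean of the D10 controls, the median log2 ratio over the 10 genes was 2.06 in EAM replicate 1, 1.20 in replicate 3, 0.059 in replicate 4 and -0.13 in replicate 2. Replicate 1 was the highest D10 EAM heart for 9 of 10 genes and replicate 2 the lowest for 10 of 10. Replicates 1 and 3 exceeded every D10 control for 10 of 10 genes and replicates 2 and 4 for 0 of 10. Without D10 EAM replicate 1 the median log2 fold change of D10 fell to 0.59 over 8 genes. At D15 the 4 hearts were close together, with medians of 3.81, 3.21, 3.04 and 3.79. At D21 they were 3.17, 2.52, 1.35 and 3.63, and replicate 3 was the lowest for 10 of 10 genes.

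**Figure D3:**
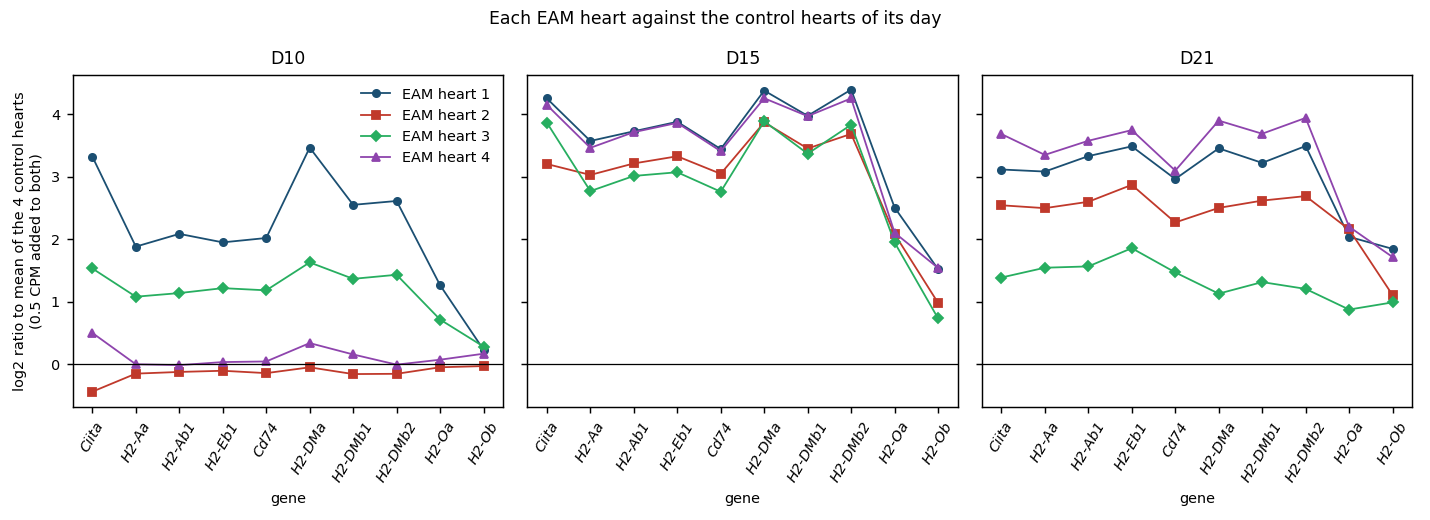
Each of the 12 EAM hearts against the mean of the 4 control hearts of its day, as a log2 ratio with 0.5 CPM added to both, across the 10 genes. The D10 hearts spread from a median of -0.13 to 2.06 and the D21 hearts from 1.35 to 3.63, while the D15 hearts lie between 3.04 and 3.81; H2-Oa and H2-Ob are drawn closer to 0 by the 0.5 CPM.

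The change of the EAM effect from D10 to D15 was tested as a difference of effects in a fit of all 24 hearts, with the same limits. It was higher at D15 for 4 of 10 genes, against 5.38% of 16318 genes tested: H2-Aa by 2.31 ± 0.55 (log2, SE), H2-Ab1 by 2.39 ± 0.59, H2-Eb1 by 2.56 ± 0.57 and Cd74 by 2.15 ± 0.56. The edgeR adjusted p were 0.00349, 0.00399, 0.00262 and 0.00528. Of the others, H2-DMb2 (2.75 ± 0.82), H2-DMb1 (2.36 ± 0.71) and H2-Ob (1.44 ± 0.45) had edgeR adjusted p of 0.0113, 0.0118 and 0.0138, and those of H2-DMa (2.10 ± 0.85) and Ciita (2.01 ± 0.85) were 0.0475 and 0.0587. H2-Oa, with few reads at D10, had 2.70 ± 1.49 (edgeR adjusted p = 0.139). Without D10 EAM replicate 1 the count was 8 of 10, with Ciita and the 3 DM genes among them, against 12.3% of all genes, and without D10 control replicate 1 it was 2 (H2-Aa and H2-Eb1), against 3.14%. The likelihood ratio test and DESeq2 each called 6, with H2-DMb1 and H2-DMb2 added, against 7.65% and 8.06% of all genes.

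From D15 to D21 the EAM effect passed the test for 0 of 10 genes, against 2.74% of all genes higher and 0.919% lower. The difference was below 0 for 9 of 10, between -0.43 (H2-Eb1) and -1.26 (H2-Oa), and 0.22 ± 0.41 (SE) for H2-Ob. An unadjusted p under 0.05 was reached by 0 of 10, while 17.3% of all genes were lower and 23.4% higher at that level, and the likelihood ratio test, DESeq2 and limma-voom also called 0 of 10, against 3.95%, 3.64% and 2.21% of all genes higher. The standard errors, 0.41 to 1.19, are as large as or larger than several of these differences. In control hearts alone, 0 of 10 genes passed between any 2 days, against 0.00613% of all genes higher and 0.0858% lower (D15 over D10), 0.123% and 0.0919% (D21 over D10) and 0% each (D21 over D15). The median differences were 0.14 (D15 over D10), 0.40 (D21 over D10) and 0.31 (D21 over D15) on the log2 scale. They moved with single control hearts: the first from 0.019 without D10 replicate 3 to 0.337 without D10 replicate 1, the second from 0.225 without D21 replicate 4 to 0.597 without D10 replicate 1, and the third from 0.10 without D21 replicate 4 to 0.469 without D21 replicate 3. Only H2-Ob reached an unadjusted p under 0.05, with 0.73 ± 0.33 (SE) from D10 to D21 (adjusted p = 0.359 by edgeR's quasi-likelihood test), and no gene did so by the 3 other tools. At that level 3.45% of all genes were higher and 3.24% lower (D15 over D10), 7.52% and 4.68% (D21 over D10) and 1.64% and 0.729% (D21 over D15).

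Ratios were also formed within each heart, with 0.5 CPM added to both genes. Of 7 ratios at 3 days, 10 of the 21 reached the smallest p that an exact permutation test of 4 against 4 hearts can give, 0.0286 (two-sided), and after adjustment over the 21 these stood at 0.06, so 0 passed 0.05. For 2 of the 10, H2-Oa to H2-DMa at D15 and H2-Ob to H2-DMb1 at D21, the groups overlapped in reads and were apart only with the 0.5 CPM added. Cd74 against B2m, the light chain of class I molecules, was a log2 ratio of 1.07 ± 0.21 (SD, n = 4) in D15 EAM and -0.52 ± 0.16 in D15 control hearts, and 0.89 ± 0.36 against -0.34 ± 0.25 at D21, without overlap at either day. Ciita against Nlrc5, the transactivator of class I genes, was 0.53 ± 0.33 in D21 EAM and -0.91 ± 0.65 in D21 control hearts, without overlap, and -0.19 ± 0.34 against -0.81 ± 0.44 at D15, with overlap. Against Ptprc, which encodes the leukocyte antigen CD45, Cd74 was lower in every D15 EAM heart than in every D15 control, at 2.84 ± 0.17 and 3.56 ± 0.19. At D21 this ratio was 3.76 ± 0.26 in EAM and 3.61 ± 0.17 in control hearts, and overlapped. H2-Ab1 against Ptprc was 0.50 ± 0.20 and 0.97 ± 0.17 at D15, EAM below control, and 1.38 ± 0.16 and 0.93 ± 0.18 at D21, EAM above control, both without overlap. Ciita against Ptprc was -1.75 ± 0.38 in D15 EAM and -1.75 ± 0.21 in D15 control hearts, and -1.23 ± 0.08 against -1.63 ± 0.09 at D21, without overlap.

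DO and DM were also set against each other in reads, chain by chain. For 1000 reads of H2-DMb1 there were 158 reads of H2-Ob in D15 control hearts (95% interval 111 to 218, exact Clopper-Pearson on the pooled reads) and 37.0 in D15 EAM hearts (32.1 to 42.4). At D21 there were 155 (115 to 206) and 72.6 (62.7 to 83.7). Heart by heart the D15 values were 167, 178, 200.0 and 100.0 in control and 39.3, 35.6, 30.0 and 40.1 in EAM, apart from each other. At D21 EAM replicate 3, at 157, lay among the controls, which ran from 136 to 184. For 1000 reads of H2-DMa there were 6.79 reads of H2-Oa in D15 control (1.84 to 17.5) and 13.5 in D15 EAM hearts (11.7 to 15.5), and at D21 12.4 (6.15 to 22.2) and 19.6 (16.4 to 23.1), intervals that overlap at both days. On the log2 scale with 0.5 CPM added this ratio was lower in EAM hearts, -5.90 ± 0.16 (SD, n = 4) against -3.95 ± 0.30 at D15. The 0.5 CPM added is above the H2-Oa level of every D15 control heart, which had 0 to 2 reads.

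**Figure D4:**
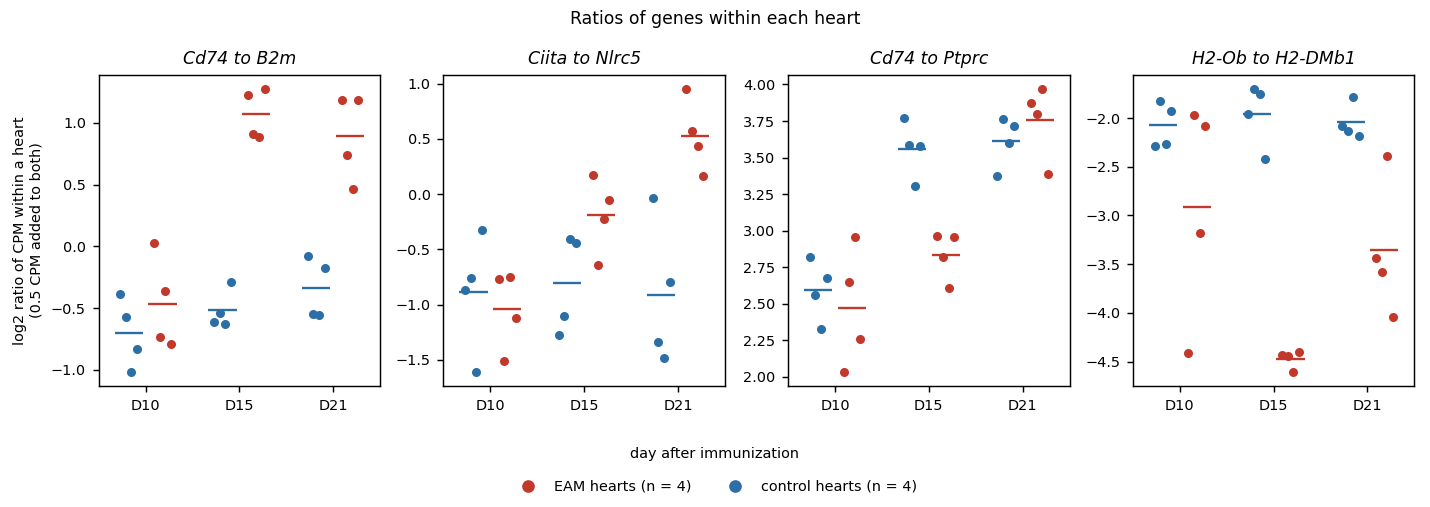
Log2 ratios of CPM within each heart, with 0.5 CPM added to both genes, for Cd74 to B2m, Ciita to Nlrc5, Cd74 to Ptprc and H2-Ob to H2-DMb1, in EAM (red) and control hearts (blue); lines are means of 4. Cd74 to B2m lies higher in all EAM hearts at D15 and D21, Ciita to Nlrc5 at D21, and Cd74 to Ptprc lies lower in all D15 EAM hearts.

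Other genes of the pathway were taken from fixed lists, by role. Of 10 genes of endosomal processing, 6 were induced at D15 and 4 at D21, 0 fell, and the median log2 fold changes were 1.46 and 1.19. Ctss, the protease that trims the invariant chain, rose by 4.80 ± 0.22 (log2, SE) at D15 and 4.02 ± 0.54 at D21, Ifi30, a thiol reductase of the endosome, by 4.35 ± 0.19 and 3.33 ± 0.56, and the cathepsin gene Ctsz by 3.16 ± 0.14 and 2.39 ± 0.41. Cst3, which encodes the protease inhibitor cystatin C, had the smallest D15 value, 0.25 ± 0.08, and was not called. Of 13 regulators of class II transcription, 4 were induced at D15 and 2 at D21, with medians of 0.56 and 0.16. Of all genes, 18.1% were induced at D15 and 4.13% at D21, with medians of 0.016 and -0.0064, against which the counts of all these lists are to be read. Those leading were the leukocyte factors Spi1 (3.82 ± 0.11 at D15, 2.84 ± 0.48 at D21) and Irf8 (3.47 ± 0.11 and 2.59 ± 0.45) and the interferon target Irf1 (2.82 ± 0.11 at D15, and 1.303 ± 0.41 at D21, where it was not called). Nfyc, a subunit of NF-Y, was at -0.45 ± 0.12 at D15, less than a 2-fold change.

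Of the list of the T cell side and of costimulation, 5 of 5 genes were induced at D15, 2 of them tested only through EAM hearts. At D21 3 were induced, and the medians were 3.03 and 2.61. Cd4, the coreceptor that binds class II, rose by 4.85 ± 0.25 (log2, SE) and 3.88 ± 0.47, the costimulatory ligand Cd80 by 3.75 ± 0.22 and 2.73 ± 0.48, and Lag3, an inhibitory receptor for class II, by 2.42 ± 0.39 and 2.61 ± 0.36. Cd86, another costimulatory ligand, rose by 3.03 ± 0.16 at D15, and its D21 value of 2.39 ± 0.50 did not pass. Of 11 class I genes, 10 were induced at D15 and 5 at D21, with medians of 1.99 and 1.59. The peptide transporter gene Tap1 rose by 3.55 ± 0.20 at D15, Nlrc5 by 3.35 ± 0.20 and the immunoproteasome gene Psmb8 by 3.14 ± 0.12. At D21 Psmb8 rose by 2.51 ± 0.45, while Tap1 (2.11 ± 0.51) and Nlrc5 (1.65 ± 0.51) did not pass. Erap1, a peptide trimming enzyme, had the smallest D15 value, 0.98 ± 0.08. At D10 0 genes of any of these lists were called. Each list gene named here as induced at D21 lost that call without any 1 of the 4 D21 control hearts.

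**Figure D5:**
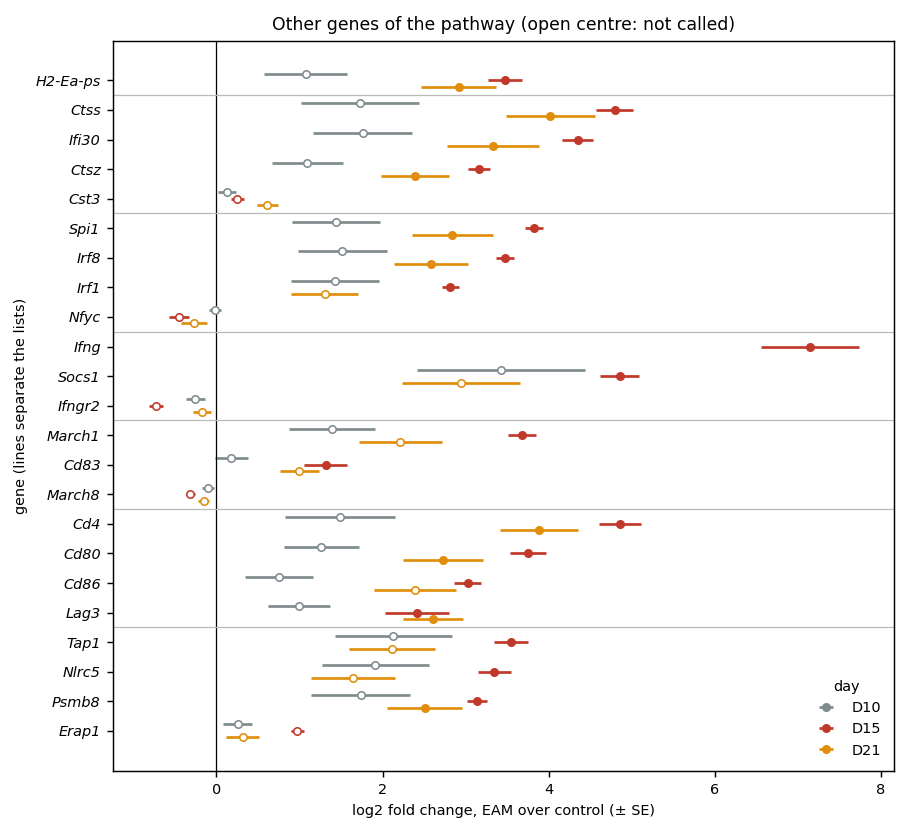
Log2 fold change of EAM over control hearts with bars of 1 SE for the named genes of each list. From top to bottom these are the relative H2-Ea-ps, endosomal processing, regulators, interferon-gamma signalling, surface turnover, T cell side with costimulation, and class I. An open centre marks a gene not called. The D15 values of Ctss, Ifi30, Cd4, Socs1 and Ifng lie above 4, those of Cst3, Nfyc, Ifngr2 and March8 below 0.3.

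In bulk tissue, more cells of a type and more RNA per cell cannot be told apart. Leukocyte markers moved with the class II genes, and their part in these results was not tested. The shares of all genes to set beside the counts are again 18.1% induced and 12.9% repressed at D15, and 4.13% and 1.16% at D21. Of 14 markers of monocytes and macrophages, 13 were induced at D15 and 8 at D21, and their summed level was 685.6 to 788 CPM in D15 control, 4086 to 5738 CPM in D15 EAM, 599 to 983 CPM in D21 control and 1610 to 5363 CPM in D21 EAM hearts. Of 10 dendritic cell markers, 6 were induced at each of D15 and D21, with sums of 39.6 to 46.6 CPM in D15 control and 125 to 227 CPM in D15 EAM hearts. Of 8 T cell markers, 8 were induced at D15 and 7 of 7 tested at D21, with sums of 2.06 to 2.84 CPM in D15 control and 51.3 to 66.8 CPM in D15 EAM hearts. All 8 at D15 and 6 of the 7 at D21 passed the filter of 10 reads in 4 hearts only with EAM hearts, as did 4 of the 6 induced dendritic cell markers at D15 and 3 of the 6 at D21, so these counts of induced markers are no measure on their own. Of 9 B cell markers, 6 could be tested at D15 and 2 were induced, and of 3 tested at D21, 1 was, each of them through EAM hearts. The B cell sum was 5.48 to 8.70 CPM in D15 control, 9.54 to 36.6 CPM in D15 EAM, 5.67 to 9.76 CPM in D21 control and 15.0 to 29.6 CPM in D21 EAM hearts. Its highest hearts were D15 EAM replicate 2, which had 47 reads of H2-Ob, and D21 EAM replicate 1, which had 77.

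Marker sums also differed between the hearts of a group. Among D10 EAM hearts the macrophage sum was 3571 CPM in replicate 1 and 1172 to 2019 CPM in the others, with 747 to 1515 CPM in the D10 controls. The T cell sum was 31.6 CPM in replicate 1 and 3.59 to 9.86 CPM in the others, with 2.77 to 4.40 CPM in the D10 controls. At D21 EAM replicate 3 had the lowest sums of both, 1610 and 15.8 CPM, while the lowest B cell and neutrophil sums were those of replicate 2, 15.0 and 106.6 CPM, beside 16.2 and 174.8 CPM in replicate 3. The dendritic cell sum of D10 EAM replicate 3, 47.0 CPM, lay below the 51.1 CPM of replicate 2 and the highest D10 control, 48.4 CPM. All 7 neutrophil markers were induced at D15, 2 of them tested only through EAM hearts, and 1 at D21, with sums of 553 to 951 CPM in D15 EAM hearts. Of 8 endothelial markers 0 were induced and 2 fell at D15. Of 6 fibroblast markers 1 was induced at each of D15 and D21. Their sum was 1451 to 1658 CPM in D15 control and 3302 to 6578 CPM in D15 EAM hearts. At D21 it was 1516 to 1896 CPM in control and 2433 to 5396 CPM in EAM hearts. Of 8 cardiomyocyte markers 5 fell at D15 and 0 at D21, with sums of 8152 to 20870 CPM in D15 EAM and 30650 to 35700 CPM in D15 control hearts. No marker of these lists was at 0 in every heart of a group.

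Apart from the members themselves, the genes whose levels followed Cd74 most closely over the 24 hearts were H2-Ea-ps, Cd4, Lck, Spn and Cd5, with root mean square differences of 0.15, 0.32, 0.32, 0.32 and 0.33 on the log2(CPM + 1) scale after centring each gene, among 16205 genes. Closest to Ciita outside the 10 members were Il2rb (0.28), H2-Ea-ps (0.32), Itgb7 (0.35), Lck (0.36) and Havcr2 (0.36). Among the 10 members the closest pairs were H2-Aa with Cd74 (0.084), H2-Aa with H2-Ab1 (0.10) and H2-Ab1 with H2-Eb1 (0.11). H2-Oa and H2-Ob were further from the other 8, at 0.80 or more, which on this scale is also set by their low level. The 1 CPM added also shrinks the changes of other genes that are low in control hearts, so closeness depends on level. The 8 T cell markers, Lck and Cd5 among them, summed to 2.06 to 2.84 CPM in D15 control hearts. In the edgeR fit Cd4 rose by 4.85 (log2) at D15 and Cd74 by 3.24. All these distances are descriptions over hearts of 6 groups that share their differences between groups.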

How the data were processed

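RNA from 24 hearts, 4 in each of 6 groups, had been sequenced as 75 bp read pairs. Per the labels and methods, the authors aligned reads to GRCm38 with HISAT2 2.0.4, removed duplicates with Picard, counted reads per Ensembl gene with featureCounts and deposited raw counts without normalization. Of the tables' rows, 92 are spike-in controls with 0 reads and were left out. Symbols and positions are those of GENCODE M21, which gave a symbol for 40254 of 41388 genes. Groups and replicate numbers were taken from the sample titles.

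From the counts, edgeR 4.0.16 (TMM, quasi-likelihood test), limma 3.58.1 and DESeq2 1.42.0 were run under R 4.3.3, with tables made in Python 3.11.15. A gene entered a day's test if 4 or more of the 8 hearts had 10 reads or more, and changes between days were tested in a fit of all 24 hearts with 6 groups. CPM are from the latter. Tests across genes were tested on simulated data. Ratios used 0.5 CPM added to each gene. Other tools, normalizations, filters, limits, control sets, the replicate number as a block and leaving out each heart were the alternatives. Named genes are the 10 members, the denominators of ratios, the 3 largest and the smallest D15 change of each list, and the 5 genes closest to Cd74 and to Ciita. 1 gene that this rule names is not reported here. Members, lists and tests were chosen with earlier results of these data known.

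What replicate numbers stand for is not in the labels. Deviations of same-numbered EAM and control hearts from their group means were compared by correlation. It was above 0.1 in 2 of 4 pairs at D10, 0 of 4 at D15 and 4 of 4 at D21 (0.101 to 0.307). Numbers were thus taken as possible pairs at D21 only. The main D21 tests do not use this pairing, which enters only through the alternatives with the replicate number as a block. No 2 replicates agreed within sampling noise (lowest mean chi-square per gene 5.44). Reads carry no molecular identifiers, so intervals and floors hold only the error of counting.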

Additional observations from a re-analysis of the deposited data

Results flagged for a closer look

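The effect of EAM differed between D10 and D15 for 4 of the 10 genes by the test of the difference itself (edgeR's quasi-likelihood test in the fit of 24 hearts), against 5.38% of all genes. The count was 2 without D10 control replicate 1 and 8 without D10 EAM replicate 1. The log2 difference was 2.31 for H2-Aa, 2.39 for H2-Ab1, 2.56 for H2-Eb1 and 2.15 for Cd74, with adjusted p of 0.00349, 0.00399, 0.00262 and 0.00528. Each of the 4 genes was above all D15 controls in 4 of 4 D15 EAM hearts and above all D10 controls in 2 of 4 D10 EAM hearts, replicates 1 and 3. No heart stood apart from its group by Dixon's test at 95% in any of the 60 groups of 4 values examined.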

How the results depend on the processing

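The 10 genes tested at D15 were called under each alternative that tested them, and the D15 fold changes kept their direction. At D10 the count was 3 with all 12 control hearts (4.07% of all genes) and 0 elsewhere. At D21 it was 4 by limma-voom (0.524%) and between 0 and 9 with single hearts left out (0% to 9.78%). The count of genes with a larger effect at D15 than at D10 was 8 at an FDR of 0.05 (9.8% of all genes), 8 with the replicate number as a block (7.89%), 6 by the likelihood ratio test and by DESeq2, and between 2 and 8 with single hearts left out. With the block, which follows the pairing taken at D21, all 10 genes stayed induced at D21 (adjusted p between 0.00134 and 0.00602 by edgeR), and March1 became called there (adjusted p = 0.00831). No ratio passed under any alternative, where the smallest exact p is 0.0571 with a heart left out and 0.125 over 4 pairs. Some values changed sign, and except where an added CPM is named the cause was not tested. H2-Ob at D10 was -0.090 with all 12 controls. Nfyc at D10 was 0.037 with total counts, 0.000 without control replicate 1 and 0.031 without EAM replicate 1 (range -0.045 to 0.031 over hearts left out). On the log2 scale the D10 difference of Cd74 to Ptprc was 0.024 without EAM replicate 1 (range -0.284 to 0.024), and that of Ciita to Nlrc5 was 0.040 without control replicate 4 and 0.009 without EAM replicate 2 (range -0.389 to 0.040). The D15 difference of Ciita to Ptprc was 0.071 with 0.1 CPM added, 0.032 and 0.075 without control replicates 1 and 4, and 0.184 without EAM replicate 2 (range -0.082 to 0.184). The D21 difference of H2-Oa to H2-DMa, -0.97 with 0.5 CPM added and -1.190 to -0.708 with hearts left out, was 0.215 with 0.1 CPM added. Depth limits H2-Oa and H2-Ob, which had 0 to 18 reads in control hearts.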

Other observations

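Genes of interferon-gamma signalling and of class II turnover were also read heart by heart. Ifng, the cytokine itself, had 128, 0, 12 and 2 reads in the D10 EAM hearts, 120, 68, 154 and 118 at D15, and 15, 13, 1 and 59 at D21, against 0 to 2 reads in each control heart. D10 EAM replicate 1, the highest D10 heart for Ciita, was also the highest for Ifng, and D21 EAM replicate 3 the lowest for both among the D21 EAM hearts. At D15 the highest hearts differed, replicate 3 for Ifng and replicate 1 for Ciita. Of 7 genes of the list, 4 were induced at D15 and, of 6 tested, 0 at D21 and 0 at D10, where 18.1%, 4.13% and 0% of all genes were. Ifng is 1 of the 4, and it passed the filter of 10 reads in 4 hearts at D15 only through the EAM hearts. Socs1, an inhibitor of the pathway, was 4.85 ± 0.24 (log2, SE) at D15 and 2.94 ± 0.71 at D21, where it did not pass (edgeR adjusted p = 0.0176). The receptor chain gene Ifngr2 was at -0.73 ± 0.08 at D15, less than a 2-fold change.

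Of the genes of turnover at the surface, 2 of 3 tested were induced at D15 and 0 at D21, against 18.1% and 4.13% of all genes. March1, which encodes a ligase that sends class II molecules to degradation, rose by 3.68 ± 0.17 (log2, SE) at D15, and its D21 value of 2.22 ± 0.50 did not pass without pairing (edgeR adjusted p = 0.0143). Cd83, whose product opposes that ligase, rose by 1.32 ± 0.26 at D15, and March8 was at -0.31 ± 0.06. Il10 was not tested.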
